A study of Mus musculus with 8 samples.

Results

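The monocyte- and eosinophil-attracting CC chemokines described here are 8 ligand genes (Ccl2, Ccl6, Ccl7, Ccl8, Ccl9, Ccl11, Ccl12 and Ccl24) and 2 receptor genes (Ccr2 and Ccr3), out of 16593 genes named on the array. They were taken by gene symbol, which gave 12 probes, since Ccl11 and Ccl12 have 2 probes each. The family was picked with the difference between the groups already known, so every comparison of the groups for these 10 genes is a description, without a test, and supports nothing further. The RNA was that of spleens from B6D2F1J recipients (a cross of C57BL/6 with DBA/2) aged 10 weeks, taken 14 days post-engraftment (day 14), in a transfer of donor cells to F1 mice that serves as a lupus model. One group of 4 samples had received cells from a DBA donor and the other group of 4 from a B10.D2 donor. Both groups therefore share the recipient strain, the age, the day and the fact of engraftment, and no array of an untreated recipient was analysed here. The labels give neither the kind nor the number of donor cells, B10.D2 names neither parent of the hybrid, and nothing says that replicates were separate mice, so errors and p-values reflect only how far these samples spread, part of which may be technical.

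CC chemokines are small secreted proteins that draw leukocytes along a gradient by way of receptors coupled to G proteins. Ccl2, Ccl7 and Ccl12 are ligands of Ccr2, the receptor by which inflammatory monocytes leave the bone marrow, while Ccl11 (eotaxin) and Ccl24 (eotaxin-2) are ligands of Ccr3, the main chemokine receptor of eosinophils. In the mouse Ccl8 is a ligand of Ccr8, a receptor of T helper cells that make type 2 cytokines, and Ccl6 and Ccl9 are ligands of Ccr1 made by macrophages and other myeloid cells. In the spleen, macrophages and stromal cells are the usual makers of such chemokines, and monocytes are held there in reserve.

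The genes of Ccl2, Ccl7, Ccl11, Ccl12 and Ccl8 are consecutive coding genes on chromosome 11 in the GRCm38.p6 gene table, with Ccl1 next in line, and Ccl9 and Ccl6 are neighbours elsewhere on that chromosome, between Ccl5 and Ccl3. Ccl12 and Ccl8, the adjacent pair at one end of the first row, are the 2 genes with the widest differences between donors below. The 250 bases before their starts are shown for that reason, from the RefSeq promoter table (GRCm38.p6, plus strand, chr11:82114935-82115184 for Ccl8 and chr11:82101595-82101844 for Ccl12), with matches to the searched motifs in capitals.
Ccl8: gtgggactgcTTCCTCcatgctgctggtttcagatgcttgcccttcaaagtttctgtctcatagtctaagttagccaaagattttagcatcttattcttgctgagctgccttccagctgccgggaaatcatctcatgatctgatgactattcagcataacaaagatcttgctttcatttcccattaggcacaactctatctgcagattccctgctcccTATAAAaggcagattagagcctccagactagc
Ccl12: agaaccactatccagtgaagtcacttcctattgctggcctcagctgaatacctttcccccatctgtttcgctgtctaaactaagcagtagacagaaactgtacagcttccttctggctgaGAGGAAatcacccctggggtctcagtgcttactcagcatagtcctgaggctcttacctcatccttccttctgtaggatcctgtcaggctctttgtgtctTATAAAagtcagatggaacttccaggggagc

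The table held 6 of the 10 genes (Ccl6, Ccl8, Ccl9, Ccl12, Ccr2 and Ccr3). Across both strands, 8 motifs were searched: the TATA box TATAAA, the interferon-gamma-activated site TTCNNNGAA, the STAT6 site (TTC and GAA with 4 bases between them), the AP-1 site TGANTCA, a C/EBP site TTGCNNAA, the interferon response core (2 copies of GAAA with 2 bases between them), the NF-kB site and the PU.1 site GAGGAA. The TATA box lay 32 to 27 bases before the start of Ccl8 and 31 to 26 bases before that of Ccl12, and 12.4% of 32851 promoters held it somewhere in the 250 bases. Both also held the PU.1 letters, on opposite strands (23.3% of promoters). Neither window held the letters of the other 6 motifs. Ccl9 held an AP-1 match (6.75% of promoters), an NF-kB match (3.9% of promoters) and 3 matches to the TATA letters, 2 of them overlapping, and Ccr3 held an AP-1, an NF-kB and a PU.1 match, the last 2 overlapping. Ccl6 and Ccr2 held no match. In a global alignment the Ccl8 and Ccl12 windows had the same base at 150 of 230 aligned positions (65.2%). As a share of aligned positions, some other pairs among the 6 genes were higher, such as Ccl6 with Ccl12 (66.5%) and Ccl9 with Ccr2 (66.8%). By count of identical bases the pair came first, at 150 against 122 to 143 in the 14 other pairs. The longest run common to Ccl8 and Ccl12 was 8 bases. A match describes these letters, not a binding site.

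Between 12601 and 13320 probes were detected per array (detection p under 0.05 against the array's own negative controls), and median raw brightness was 113.2 to 124.8 on DBA donor arrays and 126.4 to 142.1 on B10.D2 donor arrays, so raw values of dim probes cannot be set side by side without normalization. The spleen label fitted its markers: all 9 B and T cell genes on the array passed the detection filter. So did 10 of 11 genes of the red pulp macrophage list, which also holds genes of marginal zone macrophages. One array stood apart from its group: the mean correlation with the other arrays of its group, across probes, was 0.983 for B10.D2 donor replicate 4 and 0.987 to 0.991 for the other 7 arrays. Differences that moved by over 1.5 times when it was left out are given both ways where they are named, or in the closing section.

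Of the 12 probes, 8 probes of 7 genes were detected on at least 4 of the 8 arrays and entered the fit with all other such probes. The 4 left out were the probes of Ccl2, Ccl7 and Ccr2 and the Ccl11 probe ILMN_2862179, which lay under the detection threshold on every array. The plot of all probes by array shows 3 patterns, with Ccl8, Ccl12 and Ccl24 apart between donors, Ccl6, Ccl9, Ccr3 and the detected Ccl11 probe overlapping, and 4 probes at background.

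**Figure D1:**
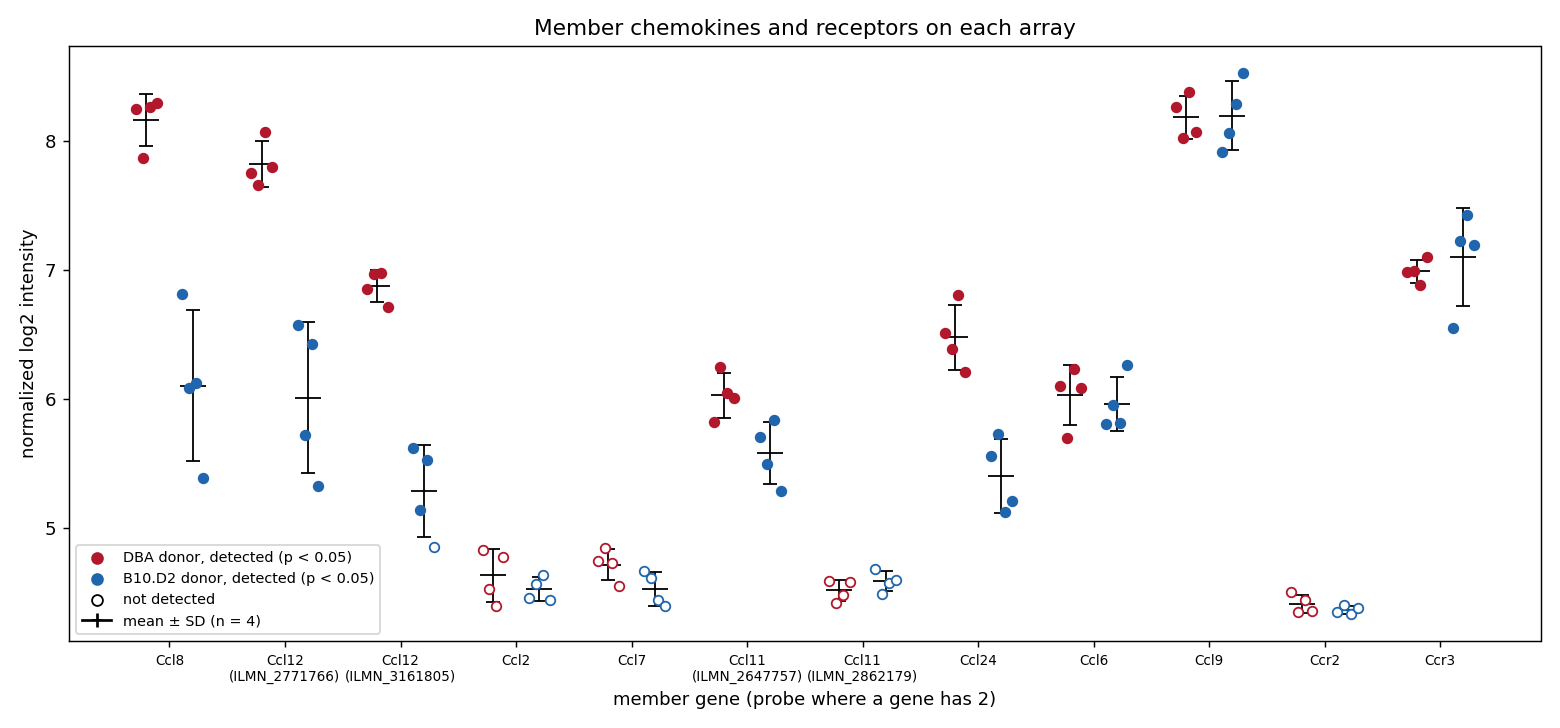
Normalized log2 intensity (vertical axis) of each of the 12 member probes (horizontal axis) on the 4 DBA donor arrays (red) and the 4 B10.D2 donor arrays (blue), in replicate order, with the mean ± SD as black bars and open circles where a probe was not detected. The groups do not overlap for Ccl8, both Ccl12 probes and Ccl24.

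Ccl8 had the largest difference of the family. Raw intensity was 328.3, 317.9, 315.4 and 384 on DBA donor replicates 1 to 4, and 209.3, 193.7, 174.2 and 149.5 on B10.D2 donor replicates 1 to 4. After normalization the log2 intensities were 8.24, 7.87, 8.26 and 8.29 in DBA donor spleens and 6.82, 6.09, 6.13 and 5.39 in B10.D2 donor spleens. The lowest DBA donor array, replicate 2, lay above the highest B10.D2 donor array, replicate 1, and the B10.D2 donor arrays were the more spread of the groups. The means were 8.17 ± 0.20 and 6.11 ± 0.58 (SD, n = 4), a log2 difference of 2.06 (95% confidence interval 1.52 to 2.61), or 4.17-fold. Of all 12950 tested probes, 0.00772% had a larger difference in either direction.

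Ccl12, a mouse monocyte attractant that binds Ccr2, followed on both of its probes. Probe ILMN_2771766 had log2 intensities of 7.75, 7.66, 8.07 and 7.80 on DBA donor replicates 1 to 4 and of 6.57, 5.72, 6.43 and 5.33 on B10.D2 donor replicates 1 to 4. Probe ILMN_3161805 had 6.86, 6.97, 6.98 and 6.71 against 5.62, 5.14, 5.53 and 4.85, and it was not detected on B10.D2 donor replicate 4. On both probes every DBA donor array lay above every B10.D2 donor array, and B10.D2 donor replicate 4 was lowest. The log2 differences were 1.81 (95% confidence interval 1.27 to 2.35, 3.50-fold) and 1.59 (95% confidence interval 1.24 to 1.95, 3.02-fold).

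Among the other Ccr2 ligands and the receptor itself, no probe was above background. Raw Ccl2 intensity, the classical monocyte attractant, ran from 100.3 to 118.4 on DBA donor arrays and from 111.4 to 127.4 on B10.D2 donor arrays, and Ccl7 from 109.3 to 122.7 and from 112.5 to 129.6. The Ccr2 probe read 102 to 105.9 and 105.3 to 118.1. These 3 probes were detected on 0 of 8 arrays, so no fold is given for them, and a probe at background does not show that its RNA was absent. Ccr1, a receptor of Ccl6 and Ccl9, was likewise detected on 0 of 8 arrays. Ccr8 was detected on 1 B10.D2 donor array and 0 DBA donor arrays.

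The 2 eotaxins of the array differed in how clearly they separated the donors. Ccl24, an eosinophil attractant made by alternatively activated macrophages among others, had log2 intensities of 6.51, 6.39, 6.81 and 6.21 on DBA donor replicates 1 to 4 and of 5.56, 5.73, 5.13 and 5.21 on B10.D2 donor replicates 1 to 4. The groups did not overlap. The means were 6.48 ± 0.25 and 5.41 ± 0.29 (SD, n = 4), a log2 difference of 1.07 (95% confidence interval 0.71 to 1.43, 2.10-fold), and 0.100% of tested probes differed by more. Raw Ccl24 intensity overlapped between the groups, at 162.7 to 175.1 on DBA donor arrays and 135.4 to 173.5 on B10.D2 donor arrays with B10.D2 donor replicate 2 at 173.5. That array had the highest median brightness of all 8 and also the highest normalized Ccl24 of its group.

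Ccl11 was measured by 2 probes, of which 1 was above background. Probe ILMN_2647757, detected on all 8 arrays, had log2 intensities of 5.82, 6.25, 6.05 and 6.01 on DBA donor replicates 1 to 4 and of 5.71, 5.50, 5.84 and 5.29 on B10.D2 donor replicates 1 to 4. The lowest DBA donor array lay just under the highest B10.D2 donor array, so the groups overlapped by 1 array each. The log2 difference was 0.45 (95% confidence interval 0.15 to 0.74, 1.36-fold). The other probe, at background on every array, had means of 4.52 ± 0.08 and 4.59 ± 0.08 (SD, n = 4) and carries no difference.

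The Ccr3 probe, for the receptor of both eotaxins, was detected on all 8 arrays and did not separate the donors. Its log2 intensities were 6.99, 6.99, 6.89 and 7.10 on DBA donor replicates 1 to 4 and 6.56, 7.22, 7.43 and 7.20 on B10.D2 donor replicates 1 to 4. The DBA donor values lay inside the B10.D2 donor range, which B10.D2 donor replicate 1 stretched downwards. The log2 difference was -0.11 (95% confidence interval -0.48 to 0.25), or -0.29 without that array and -0.00104 without B10.D2 donor replicate 3.

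Ccl6 and Ccl9, the macrophage-derived ligands of Ccr1, were detected on all 8 arrays and overlapped between donors. Ccl9 had log2 intensities of 8.26, 8.02, 8.38 and 8.07 on DBA donor replicates 1 to 4 and of 7.91, 8.06, 8.29 and 8.53 on B10.D2 donor replicates 1 to 4, with a log2 difference of -0.01 (95% confidence interval -0.32 to 0.30). Ccl6 had 6.11, 5.70, 6.23 and 6.09 against 5.81, 5.96, 5.82 and 6.26, with a log2 difference of 0.07 (95% confidence interval -0.24 to 0.38). B10.D2 donor replicate 4, lowest of all arrays for Ccl8 and for both Ccl12 probes, was highest for Ccl9 and for Ccl6. With median scaling of the arrays the differences were -0.24 for Ccl9 and -0.07 for Ccl6.

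**Figure D2:**
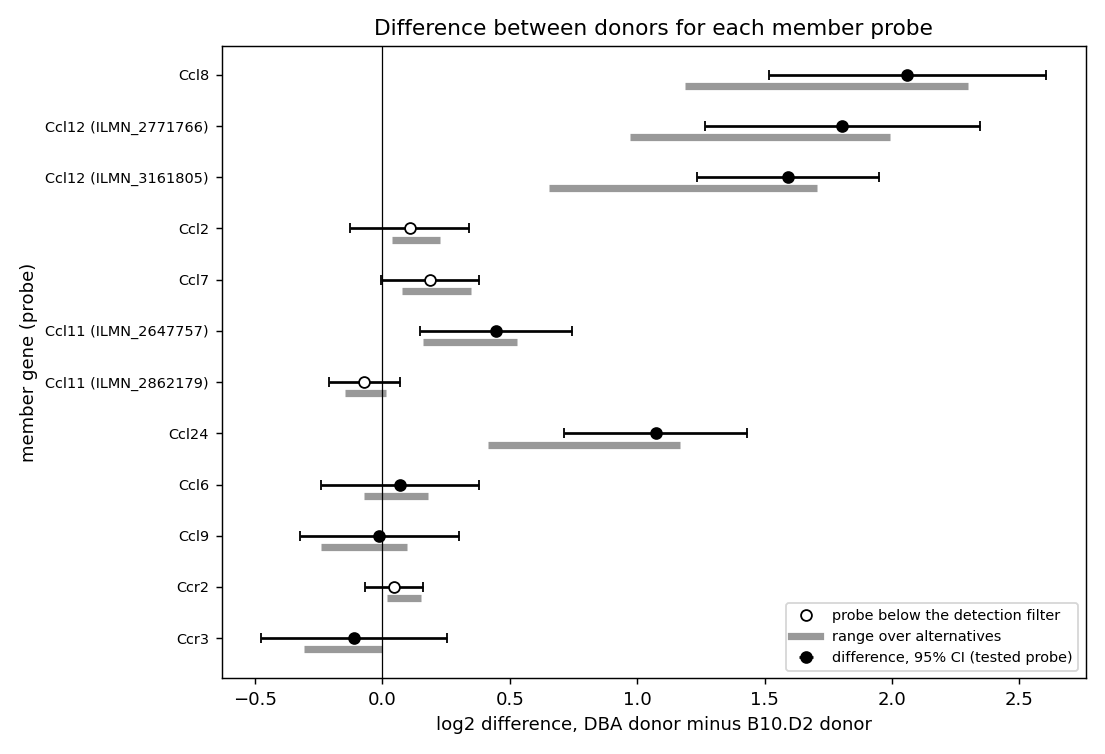
Log2 difference, DBA donor minus B10.D2 donor (horizontal axis), for each member probe (vertical axis), with its 95% confidence interval, filled for the 8 tested probes and open for the 4 under the detection filter, and the range over the alternative settings as a grey bar. Ccl8 (2.06), both Ccl12 probes (1.81 and 1.59) and Ccl24 (1.07) have the largest differences. The interval of Ccl24 (from 0.71) overlaps slightly with that of the Ccl11 probe ILMN_2647757 (up to 0.74).

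The fit across all 12950 probes (limma, adjusted p under 0.05) called 3 of the 8 tested member probes, those of Ccl8 and Ccl12, all higher in DBA donor spleens. Over all tested probes 9 were called, which is 0.0695%, with 8 higher (0.0618%) and 1 lower (0.00772%). With arrays scaled to a common median in place of quantile normalization, 27 were called higher and 598 lower, and the median difference of all tested probes shifted to -0.16, while 4 member probes were called, Ccl24 in addition, all higher. The groups did not overlap for 4 of the 8 tested member probes, all higher, against 8.37% of all tested probes, 4.15% being higher in DBA donor spleens and 4.22% lower. Because the family was chosen on this contrast, nothing is read from these counts. The calls did not all hold when single arrays were left out. Leaving out replicate 2 of the B10.D2 donor, or replicate 3 or 4 of the DBA donor, limma called 0 member probes (5 each time at an unadjusted p under 0.05, which 14.5% of all probes reached in the fit of all 8 arrays). It called 1 without replicate 3 of the B10.D2 donor or replicate 1 of the DBA donor, and 2 without DBA donor replicate 2. The sizes moved less, with 1 array left out, at 1.81 to 2.30 for Ccl8, 1.57 to 1.99 and 1.43 to 1.70 for the Ccl12 probes and 0.97 to 1.17 for Ccl24. Without background correction they were 1.19, 0.97, 0.65 and 0.42.

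Within each group the members varied among themselves, which the choice of the family did not use. Deviations from the group means were largest for Ccl8 on B10.D2 donor replicates 1 and 4, at 0.71 and -0.72, and Ccl12 followed on the same arrays, at 0.56 and -0.68 on one probe and 0.34 and -0.43 on the other. Over the 8 arrays, with each group's mean removed, Ccl8 correlated with the Ccl12 probes at 0.85 and 0.74 (rank correlations 0.81 and 0.48), and the Ccl12 probes with each other at 0.92. Without B10.D2 donor replicates 1 and 4, the correlations of Ccl8 with Ccl12 were 0.39 and -0.26, so they rest on those arrays, and that of the Ccl12 probes was 0.75. Ccl11 (ILMN_2647757) correlated with the Ccl12 probes at 0.70 and 0.81, and at 0.31 and 0.58 without the 2 arrays farthest from its median. Ccl24 had correlations of 0.37 with Ccl8, 0.16 and 0.21 with Ccl12 and -0.10 with Ccl11, so within groups it did not follow the other chemokines that differed between donors. The neighbours Ccl6 and Ccl9 correlated at 0.74 (rank correlation 0.83, and 0.57 without the 2 arrays farthest from the median of Ccl6). Other pairs ran in opposite directions. Ccl6 correlated with Ccl11 (ILMN_2647757) at -0.83 (rank correlation -0.76, and -0.64 without the same 2 arrays) and with the Ccl12 probes at -0.43 and -0.67. Ccl8 correlated with Ccl9 at -0.64, and at 0.54 without B10.D2 donor replicates 1 and 4. All these points share the normalization of 8 arrays and are given as descriptions.

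**Figure D3:**
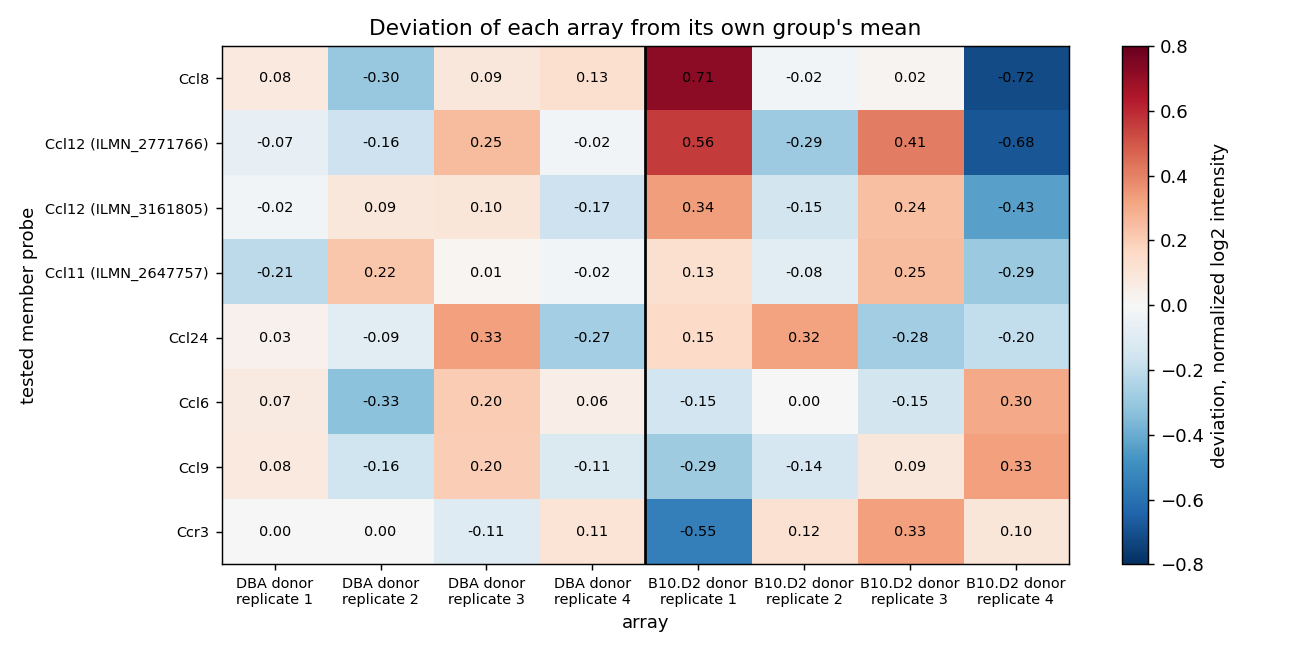
Deviation of each array (horizontal axis) from its own group's mean, in normalized log2 intensity (colour and printed value), for the 8 tested member probes (vertical axis). B10.D2 donor replicates 1 and 4 lie at opposite ends for Ccl8 and Ccl12, and replicate 4 lies above its group's mean for Ccl6 and Ccl9.

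Of 8909 other named genes, the 5 whose deviations were most like the mean of the 3 called probes within groups were Hoxc10 (0.98), Ccdc134 (0.98), Kdm6b (0.98), Morn2 (0.98) and Tnfrsf4 (0.97). Their differences between donors were -0.13, 0.40, -0.02, 0.09 and -0.43, and those of the next 2 genes in the order, Timd2 and Dusp4, which were named after their values were seen, were 0.86 and 1.06. Over the 8 values as they stand, which include the difference between donors, the correlations of the first 5 with the called mean were -0.11, 0.91, 0.26, 0.65 and -0.31. The called mean, which holds both Ccl12 probes, deviated most on B10.D2 donor replicates 1 and 4 (0.54 and -0.61). On the other arrays it deviated by -0.15 to 0.23, so the within-group correlations lean on those replicates. The 5 were picked as the highest of 8909, so high correlations were built in by the choice.

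Among the other chemokine ligands, no tested gene differed by as much as Ccl24 (1.07). Of 30 listed, 19 were tested and 0 were called by limma (at an unadjusted p under 0.05, 3 higher and 1 lower), with a median difference of 0.06 against -0.02 over all 9028 tested genes, of which 0.0775% were called. An unadjusted p under 0.05 was reached by 14.3% of those genes in either direction, and 46.0% of them had a positive difference, against which the counts of each list below can be read. Ccl3, an attractant of T cells and macrophages that lies next to Ccl6, differed by 0.60 (SE 0.13, limma adjusted p = 0.126), at 6.82 ± 0.18 against 6.22 ± 0.21 (SD, n = 4), without overlap. Its neighbour Ccl4 differed by 0.28 (SE 0.09, limma adjusted p = 0.220), and by 0.07 on its other probe. Ccl5, on the far side of Ccl9, differed by -0.11 (SE 0.10, limma adjusted p = 0.680), and Ccl1, next to Ccl8, was detected on 0 of 8 arrays. Cxcl12, a stromal chemokine that retains leukocytes, differed by -0.35 (SE 0.08, limma adjusted p = 0.141), and by -0.24 on each of its other tested probes. Of the other receptors, 11 were tested: of these, 9 had negative differences and 0 were called (2 lower at an unadjusted p under 0.05), with a median of -0.16. The scavenging receptor Ackr2, which takes up inflammatory CC chemokines, differed by -0.56 (SE 0.17, limma adjusted p = 0.210). The lymphoid homing receptor Ccr7 differed by -0.36 (limma adjusted p = 0.274) and Cxcr5 by -0.26 (limma adjusted p = 0.362, with -0.29 and -0.33 on its other probes). Of 12 tested genes that carry the signal of these receptors inside the cell, 10 had negative differences and 0 were called (1 lower at an unadjusted p under 0.05), with the G protein subunit Gnai2 at -0.19. The arrestin Arrb1 was at -0.43 (-0.05, -0.01 and -0.21 on its other probes), or -0.24 without B10.D2 donor replicate 4, and the kinase Ptk2b at -0.26, or -0.13 without DBA donor replicate 2.

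A further list held cytokines, not all of them inducers of these chemokines, with cytokine receptors and transcription factors. Of its 31 genes 19 were tested and limma called 0 (at an unadjusted p under 0.05, 3 higher and 3 lower), with a median difference of -0.11. Il33, an alarmin of stromal cells, differed by 0.78 (SE 0.23, limma adjusted p = 0.207), at 8.53 ± 0.09 against 7.75 ± 0.58 (SD, n = 4), and by 0.49 without B10.D2 donor replicate 4. Il10 differed by 0.40 (limma adjusted p = 0.209) and the interferon receptor Ifngr1 by -0.38 (limma adjusted p = 0.203). Il4, an inducer of eotaxins that is named here after its value was seen, differed by 0.46 (SE 0.16, limma adjusted p = 0.245), or by 0.28 without B10.D2 donor replicate 4. Il5, the growth factor of eosinophils, was detected on 0 of 8 arrays.

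Markers of the cells that these chemokines attract were set beside them. In whole spleen, fewer cells of a type and less RNA per cell cannot be told apart. Of 15 monocyte markers on the array 12 were tested, 5 with positive and 7 with negative differences and a median of -0.04, and limma called 0 (0 also at an unadjusted p under 0.05). Their summed normalized intensity was 14802 to 17363 in DBA donor spleens and 14336 to 17277 in B10.D2 donor spleens, and Itgam, Vcan and Nr4a1 were detected on no array. The 3 with the smallest p were Treml4 (-0.15, limma adjusted p = 0.636, with 0.12 on its other probe), Ms4a6c (0.14, limma adjusted p = 0.683) and Clec4a3 (0.13, limma adjusted p = 0.714, with 0.15 on its other probe). The summed levels of the 2 groups overlapped almost fully. The sum is of linear values, so the brightest genes make up most of it. These were Lyz2 (mean log2 13.03 in DBA donor and 13.01 in B10.D2 donor spleens) and Plac8 (11.93 and 11.91).

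Of 8 eosinophil markers on the array 5 were tested, and limma called 0 (1 higher at an unadjusted p under 0.05). All 5 had positive differences, with a median of 0.29, though Prg3 (0.013) hardly differed. With median scaling Ear10 was at -0.03. Siglecf and Alox15 were detected on no array. The summed normalized intensity of the 5 tested was 2124 to 5268 in DBA donor spleens and 2168 to 3303 in B10.D2 donor spleens, which overlap. Prg2, the brightest (mean log2 11.27 in DBA donor and 10.98 in B10.D2 donor spleens), made up most of that sum. The granule protein genes Epx and Ear6 differed by 0.56 (SE 0.25, limma adjusted p = 0.337) and 0.56 (SE 0.27, limma adjusted p = 0.383), Ear10 by 0.17 (limma adjusted p = 0.635), and Prg2, named after its value was seen, by 0.29 (limma adjusted p = 0.673). DBA donor replicate 4 held the highest sum, and without it Epx differed by 0.41, Ear6 by 0.32 and Prg2 by 0.02. On that array Ccl24 was the lowest of its group.

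Among markers of alternatively activated macrophages, 8 of 12 on the array were tested and limma called 0 (1 higher at an unadjusted p under 0.05), with a median difference of -0.03. Retnla, a secreted protein induced by type 2 cytokines, differed by 1.01 (SE 0.36, limma adjusted p = 0.244), with log2 intensities of 4.87 to 7.08 against 4.78 to 5.19 that overlap, and by 0.66 when DBA donor replicate 3 was left out, while Mgl2 was at -0.33 (limma adjusted p = 0.487) and Clec10a at -0.21 (limma adjusted p = 0.506). Without DBA donor replicate 2 both Mgl2 and Clec10a were at -0.11. Arg1, Chil4 and Lyve1 were detected on no array. Red pulp macrophage markers had a median of -0.04, with the sialic acid receptor Siglec1 at -0.52 (limma adjusted p = 0.126), the scavenger receptor Marco at -0.40 (limma adjusted p = 0.201) and the iron exporter Slc40a1 at -0.18 (limma adjusted p = 0.511). Of 10 tested, limma called 0 (2 lower at an unadjusted p under 0.05).

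Mast cell and basophil markers were on the same side as Ccl8, Ccl12 and Ccl24. All 8 tested of 12 on the array had positive differences, with a median of 0.45, though Hdc (0.015) and Gata2 (0.006) hardly differed. Of these 8, limma called 1 (5 higher at an unadjusted p under 0.05), the mast cell protease Mcpt4 (1.28, SE 0.17, limma adjusted p = 0.0341). Leaving out replicate 2 or 3 of the B10.D2 donor, or any 1 of the DBA donor arrays, ended the call, at differences of 1.16 to 1.37. The proteases Cma1 and Cpa3 differed by 0.50 (limma adjusted p = 0.119) and 0.60 (limma adjusted p = 0.143). The other Cma1 probe was at 0.48, and the other Cpa3 probes were at 0.57 and 0.07. The summed normalized intensity of the list was 964 to 1207 in DBA donor spleens and 769 to 891 in B10.D2 donor spleens, without overlap, and Mcpt2, Tpsb2 and Ms4a2 were detected on no array. Their part in the chemokine differences was not tested.

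Of the lists for other cells in the spleen, limma called 0 genes in each, although with median scaling Cdh5, Cd8b1, Cd79a and Thy1 were called lower. The stroma and endothelium list (13 tested, 1 lower at an unadjusted p under 0.05) had a median of -0.01, with Cdh5 at -0.51 (limma adjusted p = 0.136). Pdgfrb was at -0.33 (-0.50 without DBA donor replicate 4). Dcn was at 0.33 (0.10 without B10.D2 donor replicate 4), and at 0.48 on its other probe. The neutrophil list (10 tested, 1 lower at an unadjusted p under 0.05) had a median of 0.03, with Mmp9 at -0.50 (limma adjusted p = 0.255, or -0.34 without B10.D2 donor replicate 4), Elane at 0.13 and Retnlg at 0.08. The B and T cell list (9 tested, 3 lower at an unadjusted p under 0.05) had negative differences in all 9 genes and a median of -0.25. Cd8b1 was at -0.38 (limma adjusted p = 0.206, with -0.39 on its other probe), Cd79a at -0.37 (limma adjusted p = 0.220) and Thy1 at -0.28 (limma adjusted p = 0.325). The erythroid list (3 tested, 0 at an unadjusted p under 0.05) had a median of -0.03, with Alas2 at -0.16 and Klf1 at -0.03. The remaining gene, Hba-a1, had the same normalized value, 14.64, on every array, so it carries no information on the donors.

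**Figure D4:**
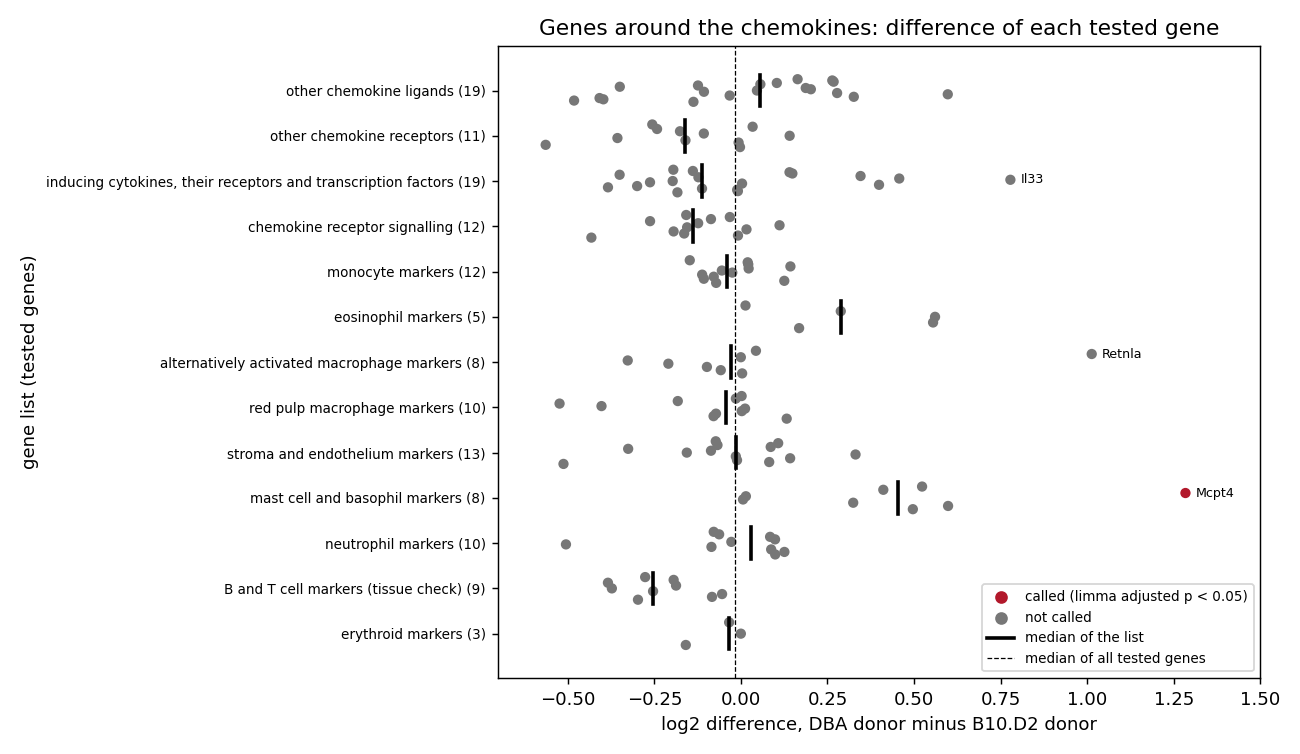
Log2 difference, DBA donor minus B10.D2 donor (horizontal axis), of every tested gene in each list around the chemokines (vertical axis, with the number of tested genes), with the list's median as a black bar and the median of all tested genes as a dashed line. Mcpt4 is the one called gene, and the eosinophil and the mast cell and basophil lists have medians of 0.29 and 0.45.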

How the data were processed

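The 8 spleen RNA samples were each hybridised to a 1-colour Illumina bead array. Per the file headers, the deposited non-normalized table holds mean bead intensity on a linear scale and a detection p-value per probe and array; GenomeStudio is the tool listed in the submitters' processing notes. A second table deposited by the authors holds processed intensity with the same lowest (-16.5) and highest (25599.3) value on every array, and served as an alternative.

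Intensities were corrected by normexp from the detection p-values with an offset of 16, quantile-normalized and put on a log2 scale (neqc, limma 3.58.1, R 4.3.3). Of 25697 probes, 23978 had a gene symbol in the platform annotation and 1719 had none. The 12950 probes detected (p under 0.05) on at least 4 of 8 arrays were fitted (lmFit, eBayes, DBA donor minus B10.D2 donor, two-sided), with Benjamini-Hochberg adjustment over all of them and calls at an adjusted p under 0.05. Member probes outside the filter took their values from a fit of all probes. A gene of a list was represented by its tested probe with the highest mean. Up to 3 tested genes per list with the smallest p were named, besides called genes. The offset shrinks differences of dim probes, and precision is limited by having 4 arrays a group. Promoters were aligned with Biopython 1.88, and figures drawn with matplotlib 3.10.9 in Python 3.11.15. The members and lists were chosen with earlier results of these data known. No coordinates of probes are given, since no source used here names the build behind the files.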

Additional observations from a re-analysis of the deposited data

Results flagged for a closer look

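In 6 of 108 groups of 4 values, 1 array lay far from the other 3 of its group, where chance gives about 5.4, or 1 in 20. Among the chemokines, DBA donor replicate 2 had the lowest Ccl8 log2 intensity of its group, 7.87, where the others had 8.24 to 8.29. DBA donor replicate 4 had the lowest Il33 of its group (8.40, the others 8.56 to 8.58) and the highest Slc40a1 (12.99). The other 3 Slc40a1 values of that group were identical, at 12.96, so any gap, however small, would have been flagged. On B10.D2 donor replicate 1, Cxcl12 was lowest (11.80 against 11.95 to 11.97), and so was Ccl5 (10.53 against 10.78 to 10.81). Dcn was lowest on B10.D2 donor replicate 4 (9.48 against 10.30 to 10.46).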

How the results depend on the processing

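Over 18 alternatives, Ccl8, both Ccl12 probes, Ccl24 and the detected Ccl11 probe kept their direction, and Ccl24 was called under 3 of them (median scaling, a trended robust variance and array weights). Of all tested probes 9 were called, which became 625 with median scaling, 38 with array weights and 0 with no filter on dim probes (limma, 2759 under an unadjusted p of 0.05), and between 0 and 11 when single arrays were dropped. For member probes the count of 3 became 0 with no filter (5 under an unadjusted p of 0.05) and 0 to 3 when single arrays were dropped. For list genes the count of 1 became 13 with median scaling (2 higher, Mcpt4 and Cma1, and 11 lower, among them Cxcl12, Ackr2, Ifngr1, Siglec1, Marco, Cdh5, Cd8b1, Cd79a and Thy1), 0 with no filter (30 under an unadjusted p of 0.05) and 0 to 1 when single arrays were dropped. With the replicate block 7 probes, 3 member probes and 1 list gene were called. Deviations of same-numbered samples correlated at 0.34, -0.35, 0.05 and 0.04. The labels do not say what the numbers mean, and these values do not settle whether samples were paired. Some small differences of list genes changed sign. With median scaling the log2 difference of Clec4a3 was -0.086, of Ear10 -0.030, of Elane -0.10 and of Retnlg -0.14, and with array weights that of Klf1 was 0.017. Without B10.D2 donor replicate 4 Ccl9 was at 0.10, Ccl6 at 0.17, Treml4 at -0.06, Alas2 at -0.08, Retnlg at 0.13, Elane at -0.042 and Klf1 at 0.27. With 1 array left out, Clec4a3 ran from -0.0040 to 0.20, Elane from -0.042 to 0.31, Retnlg from -0.086 to 0.23 and Klf1 from -0.28 to 0.27. The causes were not tested. Probes at background (Ccl2, Ccl7, Ccr2 and 1 Ccl11 probe) limit what can be said of them.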
